A study of Mus musculus with 33 samples.

Results

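The transcription factors that set up the granulocyte and monocyte lineages were followed in sorted stem and progenitor cells of old mice. The 10 genes were taken by their symbols, *Spi1*, *Cebpa*, *Cebpb*, *Cebpd*, *Cebpe*, *Cebpg*, *Gfi1*, *Irf8*, *Klf4* and *Runx1*, from the 55376 gene symbols counted in every library, and all 10 were found. Haematopoietic stem cells (HSCs), lymphoid progenitors (CLPs) and progenitors of granulocytes and monocytes (GMPs) came from male C57BL/6 mice of 24 to 29 months, either untreated (O-WT) or given nicotinamide riboside (NR), an NAD+ precursor, in the drinking water for 4 to 6 weeks (O-NR). No young mice and no genetic alteration were part of these groups. Cohort 2 had 4 libraries per treatment in each of the 3 cell types, 24 in all, and cohort 1 had only HSCs, with 2 libraries for O-WT, 4 for O-NR and 3 for mice studied 2 months after NR was stopped (O-NR-RC). Each library was taken as the cells of 1 mouse, which the labels do not state, so the p-values measure the spread between these libraries, whether it is biological or technical. In cohort 2, libraries of the 3 cell types with the same number and treatment were also taken as 1 mouse. The reported p-values between cell types do not use this pairing, and fits with the replicate number as a block were an alternative. The titles name the myeloid progenitors as GMPs while another label field calls them common myeloid progenitors.

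PU.1, the product of *Spi1*, is an ETS factor needed for both lymphoid and myeloid progenitors, and its dose helps to set the choice between them. C/EBPα drives the step from stem cells and multipotent progenitors to GMPs, C/EBPε acts later in the making of granules, and C/EBPβ serves emergency granulopoiesis, while Gfi1 represses monocyte genes and favours neutrophils. IRF8 and KLF4 favour monocytes and dendritic cells, IRF8 also acts in early B cells, and RUNX1 is needed for stem cells to emerge and later at several branches of blood formation.

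The RefSeq table of promoters (GRCm38.p6, 250 bases before to 50 after a start site) held 10 promoters of 7 of the genes, *Cebpa*, *Cebpb*, *Cebpg*, *Gfi1*, *Irf8*, *Klf4* and *Runx1*. In all, 6 motifs of the factors' own families and 2 others were searched on both strands. They were C/EBP (TTGCGNAA), PU.1 (GAGGAAGT), RUNX (TGTGGTT), the one read by factors such as Gata2 (AGATAA), IRF (GAAA on both sides of any 2 bases), a cyclic AMP response element (TGACGTCA), KLF (CACACCC) and GFI1 (AAATCNC). Among all 32851 promoters the shares holding these were 0.8%, 3.2%, 5.27%, 11.18%, 3.44%, 1.79%, 7.95% and 11.7%. Matches lay in only the first promoters of *Irf8* and *Runx1*. In *Irf8* a GFI1 motif lay on the minus strand at -176 from the start site. In *Runx1* a pair of RUNX motifs lay on the minus strand at 28 and 36 and a GFI1 motif at -234. The following 4 are shown 5′ to 3′ on the gene's strand, *Cebpa* for the widest range between cell types, *Irf8* and *Klf4* because their levels parted the GMP libraries together, and *Runx1* for its level in all 3 cell types. Capitals mark the matched motifs, which read as the reverse complement because they lie on the minus strand of the window.
Cebpa, chr7:35119043-35119342, plus strand: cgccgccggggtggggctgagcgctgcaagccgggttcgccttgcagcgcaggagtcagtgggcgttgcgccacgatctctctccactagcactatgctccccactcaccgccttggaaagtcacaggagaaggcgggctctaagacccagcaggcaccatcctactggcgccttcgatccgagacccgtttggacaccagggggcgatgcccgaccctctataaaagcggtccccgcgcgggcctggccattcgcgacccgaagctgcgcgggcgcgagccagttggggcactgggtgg
Irf8 first promoter, chr8:120736108-120736407, plus strand: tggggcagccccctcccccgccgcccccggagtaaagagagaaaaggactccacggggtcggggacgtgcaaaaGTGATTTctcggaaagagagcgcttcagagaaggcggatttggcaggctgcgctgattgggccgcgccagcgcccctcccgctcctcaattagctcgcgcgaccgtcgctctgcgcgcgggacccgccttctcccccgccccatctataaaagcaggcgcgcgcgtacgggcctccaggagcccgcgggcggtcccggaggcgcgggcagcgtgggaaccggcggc
Klf4, chr4:55532426-55532725, minus strand: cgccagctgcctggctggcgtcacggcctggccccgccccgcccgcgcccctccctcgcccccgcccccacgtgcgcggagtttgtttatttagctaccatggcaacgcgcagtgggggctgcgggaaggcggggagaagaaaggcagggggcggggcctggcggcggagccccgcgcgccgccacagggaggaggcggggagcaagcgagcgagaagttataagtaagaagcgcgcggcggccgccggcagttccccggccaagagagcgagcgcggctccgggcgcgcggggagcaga
Runx1 first promoter, chr16:92826025-92826324, minus strand: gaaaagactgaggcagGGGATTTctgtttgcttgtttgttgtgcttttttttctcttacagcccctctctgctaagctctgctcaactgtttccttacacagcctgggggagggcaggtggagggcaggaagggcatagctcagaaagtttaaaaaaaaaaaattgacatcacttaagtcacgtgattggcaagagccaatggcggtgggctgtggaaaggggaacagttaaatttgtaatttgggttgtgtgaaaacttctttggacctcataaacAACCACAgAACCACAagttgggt
The *Irf8* and *Klf4* windows held 38 and 40 CpG dinucleotides against a median of 7 over all promoters, and the *Runx1* window held 2. A match of letters is a description and not a bound site.

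In mm10, *Spi1* lies at chr2:91082390-91115756, *Cebpb* at chr2:167688915-167690418, *Cebpd* at chr16:15887286-15891031 and *Cebpe* at chr14:54710360-54712174. *Gfi1* lies at chr5:107716657-107726036 and *Runx1* at chr16:92601466-92826149. *Cebpa* (chr7:35119293-35121928) and *Cebpg* (chr7:35046422-35056573) are neighbours with 62719 bases between them. *Irf8* lies at chr8:120736358-120756694 and *Klf4* at chr4:55527143-55532466. The strand setting of the counting is not stated, and without strand 20.7% of the *Cebpb* exon bases are shared with *Tmem189* and 15% of those of *Cebpd* with *Spidr*, which run the other way. For *Gfi1* the shared part is 3.2%, with A430072P03Rik.

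Counted reads per library were 8434214 to 14479453 in HSCs, 4792380 to 12058957 in CLPs and 11755798 to 18213674 in GMPs of cohort 2, and 8897256 to 23816042 in cohort 1. Levels are given in CPM, the counts scaled to equal library size and adjusted with TMM within each cohort, so a level of cohort 1 cannot be set directly against one of cohort 2. The sorted cells bore their markers. In O-WT mice all 8 HSC markers were lower in GMPs than in HSCs, all 6 GMP markers were higher there, and all 7 CLP markers were higher in CLPs than in HSCs (adjusted p below 0.05). Other markers were present too. The 8 B and plasma cell markers summed to 66.4 to 732 CPM in O-WT HSCs and 24.9 to 128 CPM in O-NR HSCs. The 10 secondary granule and alarmin genes summed to 59.0 to 206 CPM in O-WT CLPs and 22.7 to 156 CPM in O-NR CLPs. In O-WT GMPs they summed to 36.4 to 71.0 CPM. The part of other cells in the results was not tested. As a gauge of reads foreign to these cells, olfactory and vomeronasal receptor genes took 0.0777% to 0.749% of counted reads in cohort 2. In cohort 1 they took 0.392% to 0.799% in 5 libraries and 1.26% to 1.35% in the other 4, O-NR replicates 1 and 2 and O-NR-RC replicates 2 and 3. The results of cohort 1 are therefore given with and without these libraries.

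**Figure D1:**
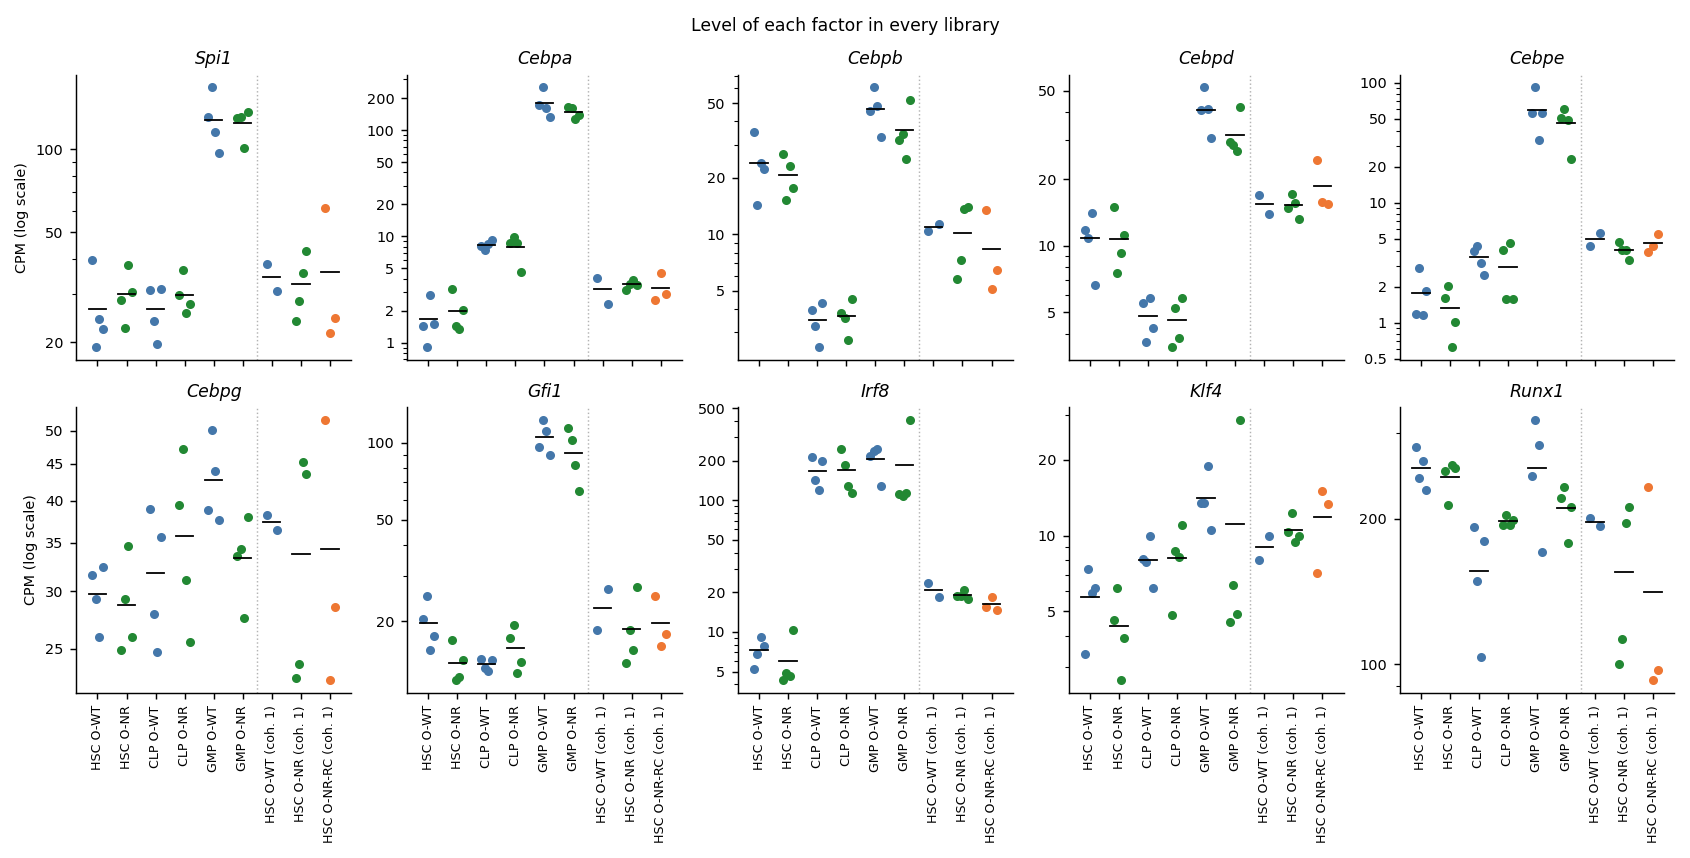
Level of each of the 10 factors in CPM (log axis) in every library, by cell type and treatment. Points are libraries and bars are group means, blue O-WT, green O-NR and orange O-NR-RC, with cohort 1 to the right of the dotted line. *Cebpa* ran from 0.918 to 3.19 CPM in HSCs and from 127 to 251.1 CPM in GMPs, while *Runx1* stayed above 103 CPM in each library of cohort 2.

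In O-WT mice, 9 of the 10 factors were higher in GMPs than in HSCs and none was lower (quasi-likelihood test of edgeR, p-values adjusted by Benjamini-Hochberg over 20044 genes). Of all genes tested, 21% were higher and 25.7% lower. The median log2 fold change of the factors was 2.07, against -0.40 over all genes. The factors were chosen as myeloid regulators with earlier results of these data known, so this contrast is not an independent test. In O-NR mice 8 were higher and none lower, beside 25% of 18080 genes. In bulk libraries, fewer cells of a type and less RNA per cell cannot be told apart.

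*Cebpa* had the widest range. Its levels in O-WT mice were 1.44, 0.918, 2.81 and 1.51 CPM in HSCs, 8.11, 7.49, 8.47 and 9.20 CPM in CLPs and 173, 251.1, 160 and 132 CPM in GMPs. The 3 cell types did not overlap. From HSC to GMP the log2 fold change was 6.71 ± 0.26 (SE, adjusted p = 3.37e-19, edgeR) and that from HSC to CLP 2.37 ± 0.26 (adjusted p = 6.55e-09).

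*Cebpe*, which acts late in granulocytes, stood at 1.18, 2.86, 1.16 and 1.86 CPM in O-WT HSCs, at 3.94, 4.36, 3.18 and 2.52 CPM in CLPs and at 55.9, 91.3, 33.1 and 56.0 CPM in GMPs. Each GMP library lay above every other, whereas HSCs and CLPs overlapped. It was higher by 5.03 ± 0.29 in GMPs than in HSCs (log2, SE, adjusted p = 2.50e-15) and by 1.03 ± 0.32 in CLPs than in HSCs (adjusted p = 0.0135, edgeR). The HSC counts were between 12 and 28 reads per library, which limits the precision of that last value.

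The other C/EBP genes followed other orders. *Cebpb* was lowest in CLPs, at 3.94, 3.24, 2.52 and 4.31 CPM, against 35.2, 14.3, 24.1 and 22.3 CPM in HSCs and 45.2, 60.6, 48.1 and 33.2 CPM in GMPs of O-WT mice. CLPs overlapped neither of the other cell types, whereas HSCs and GMPs overlapped. It was lower in CLPs than in HSCs by a log2 fold change of -2.70 ± 0.24 (SE, adjusted p = 5.51e-11, edgeR) and higher in GMPs than in HSCs by 0.93 ± 0.20 (adjusted p = 0.000289). *Cebpd* had the same order, at 5.48, 3.69, 5.83 and 4.23 CPM in CLPs, 11.8, 10.8, 14 and 6.67 CPM in HSCs and 40.8, 51.8, 41.5 and 30.7 CPM in GMPs, and here no cell types overlapped. It changed by a log2 fold change of -1.12 ± 0.24 for CLP against HSC (adjusted p = 0.00029) and 1.90 ± 0.22 for GMP against HSC (adjusted p = 7.76e-09, edgeR). *Cebpg*, which lacks an activation domain and acts as a partner of other bZIP factors, stood apart from its family and had a narrower range. Its O-WT levels were 31.6, 29.3, 25.9 and 32.4 CPM in HSCs, 39.0, 27.9, 24.8 and 35.7 CPM in CLPs and 38.9, 50.2, 44.0 and 37.6 CPM in GMPs. GMPs lay above HSCs without overlap, by 0.48 ± 0.16 (SE, adjusted p = 0.0131, and 0.0875 without HSC O-WT replicate 3), and overlapped CLPs (0.34 ± 0.16, adjusted p = 0.0608, edgeR).

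Of the factors outside the C/EBP family, *Spi1* stood at 39.8, 19.3, 24.4 and 22.3 CPM in O-WT HSCs, at 31.0, 23.9, 19.7 and 31.3 CPM in CLPs and at 131, 167, 115 and 96.6 CPM in GMPs. HSCs and CLPs overlapped throughout and GMPs lay above both. On the log2 scale the difference was 2.24 ± 0.20 for GMP against HSC (SE, adjusted p = 4.44e-11, edgeR) and 0.06 for CLP against HSC, with a 95% interval from -0.35 to 0.46. *Gfi1* was also a GMP gene, at 96.7, 123, 111 and 89.9 CPM there, 20.5, 25.1, 15.5 and 17.5 CPM in HSCs and 14.2, 13.2, 12.8 and 14.1 CPM in CLPs. No cell types overlapped. It was 2.39 ± 0.17 higher in GMPs than in HSCs (log2, SE, adjusted p = 2.67e-13, edgeR). In CLPs it was below HSCs by a log2 fold change of -0.48 ± 0.17 (adjusted p = 0.034), a call that was lost with the replicate number as a block (adjusted p = 0.057), with DESeq2, with both other scalings and without the filter. It was also lost without HSC O-WT replicate 1 or 2 or any 1 of the 4 CLP O-WT libraries (adjusted p = 0.0642 to 0.189).

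*Irf8* separated HSCs from both progenitors. It stood at 5.23, 6.84, 9.09 and 7.77 CPM in O-WT HSCs, at 213, 141, 119 and 199 CPM in CLPs and at 218, 235, 243 and 129 CPM in GMPs. Every HSC library lay below every CLP and GMP library, and those of CLPs and GMPs overlapped. Log2 fold changes were 4.58 ± 0.24 for CLP against HSC (SE, adjusted p = 5.36e-16) and 4.796 ± 0.24 for GMP against HSC (adjusted p = 1.05e-16, edgeR). Between GMPs and CLPs the value was 0.22, with a 95% interval from -0.19 to 0.63. *Klf4* was low throughout, at 3.38, 7.35, 5.90 and 6.19 CPM in HSCs, 8.11, 7.82, 9.93 and 6.19 CPM in CLPs and 13.5, 13.4, 18.8 and 10.5 CPM in GMPs. Its GMP libraries lay above all others, by 1.26 ± 0.27 over HSCs (log2, SE, adjusted p = 0.000249, edgeR).

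*Runx1* was the exception. Its O-WT levels were 282, 242, 264 and 230 CPM in HSCs, 192, 149, 104 and 180 CPM in CLPs and 245, 319, 284 and 171 CPM in GMPs. HSCs lay within the range of GMPs, and all CLP libraries lay below all HSC libraries. It differed by -0.03 (log2) in GMP against HSC, with a 95% interval from -0.44 to 0.37, and -0.66 ± 0.20 for CLP against HSC (SE, adjusted p = 0.00964, edgeR). The near-zero GMP value turned to 0.22 with DESeq2's size factors and to 0.28 without the filter, without passing the test. The CLP call was lost with DESeq2's size factors (-0.58, adjusted p = 0.0872), without the filter (-0.70, adjusted p = 0.21), and without HSC O-WT replicate 3 or CLP O-WT replicate 2 or 3 (-0.43 to -0.60, adjusted p = 0.0642 to 0.0961).

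Between CLPs and HSCs of O-WT mice, 3 of the 10 were thus higher in CLPs (*Cebpa*, *Cebpe* and *Irf8*) and 4 lower (*Cebpb*, *Cebpd*, *Gfi1* and *Runx1*), beside 9.57% higher and 20.7% lower of all genes. The split was 3 to 2 with DESeq2's size factors and 4 to 3 with upper quartile scaling. Between GMPs and CLPs 8 were higher in GMPs and none lower, beside 27.2% higher and 34.9% lower of all genes, with log2 fold changes of 4.34 for *Cebpa*, 4.00 for *Cebpe*, 3.63 for *Cebpb*, 3.02 for *Cebpd*, 2.87 for *Gfi1*, 2.18 for *Spi1*, 0.72 for *Klf4* and 0.63 for *Runx1*. *Cebpg* and *Irf8* did not pass, though *Cebpg* did with DESeq2's size factors (0.52, adjusted p = 0.037), with DESeq2 (0.52, adjusted p = 0.023) and in one model over the 24 libraries (0.39, adjusted p = 0.0466, edgeR). The median over all genes in GMP against HSC moved from -0.40 to -0.13 with DESeq2's size factors and to -0.58 with upper quartile scaling, and in GMP against CLP from -0.32 to -0.13 and -0.74. With upper quartile scaling *Klf4* and *Runx1* lost their calls in GMP against CLP, and *Cebpg* (-0.08) and *Irf8* (-0.22) changed sign there. The call of *Klf4* in that pair was also lost in the one model (0.79, adjusted p = 0.064, edgeR) and without CLP O-WT replicate 2 or 4 or GMP O-WT replicate 3 (adjusted p = 0.0523 to 0.0751), and that of *Runx1* without CLP O-WT replicate 2 or 3 (0.062 and 0.0702). *Cebpg* gained a call there without HSC O-WT replicate 1, CLP O-WT replicate 1 or GMP O-WT replicate 4 (0.0333 to 0.0488), and *Klf4* in CLP against HSC without HSC O-WT replicate 2 (0.0433).

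**Figure D2:**
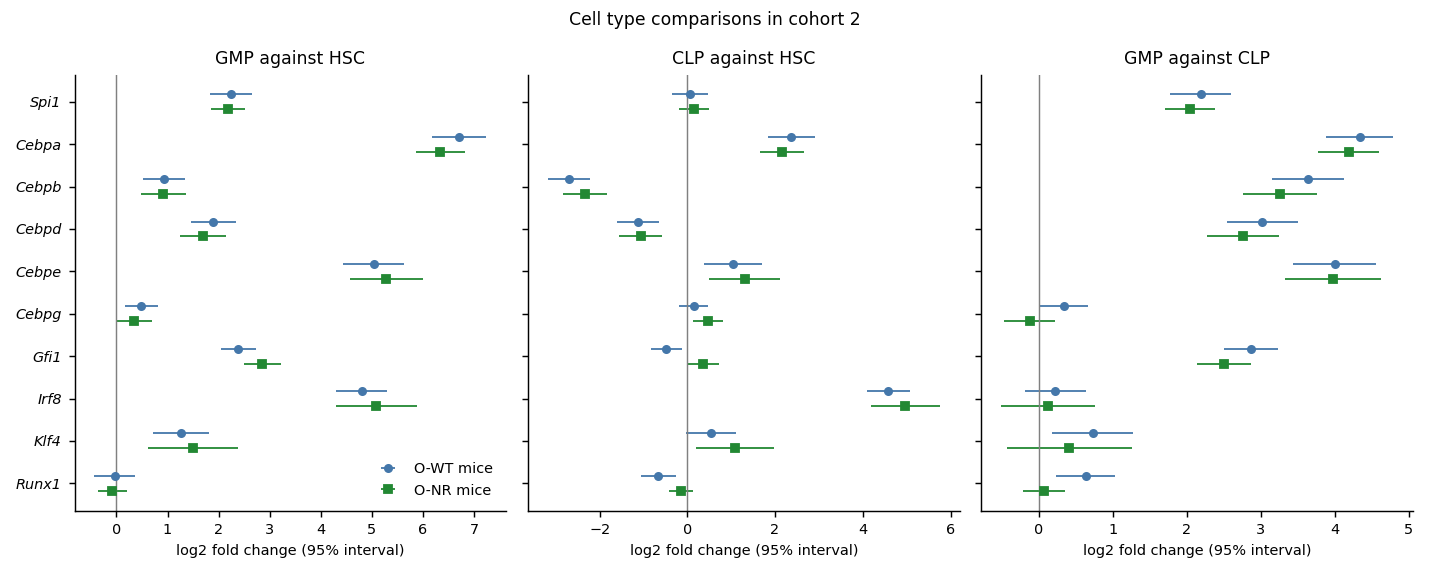
Log2 fold changes of the 10 factors between cell types of cohort 2, with 95% intervals, in O-WT mice (blue circles) and O-NR mice (green squares), 4 libraries per group. *Cebpa*, *Cebpe* and *Irf8* moved most from HSC to GMP, and *Cebpb* and *Cebpd* lay left of 0 from HSC to CLP in both sets of mice.

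The same comparisons in O-NR mice gave the same direction for *Spi1*, *Cebpa*, *Cebpb*, *Cebpd*, *Cebpe* and *Irf8* in all 3 pairs of cell types, with *Irf8* in GMP against CLP and *Spi1* in CLP against HSC uncalled in both sets of mice. In CLP against HSC, *Gfi1* stood at 0.36 (adjusted p = 0.116), *Runx1* at -0.15 (adjusted p = 0.393), *Cebpg* at 0.47 (adjusted p = 0.0272) and *Klf4* at 1.09 (adjusted p = 0.0459, edgeR). There were 5 higher in CLPs and 2 lower, beside 19.8% higher and 20.9% lower of all genes. In GMP against CLP 6 were higher, beside 25.5%, and none lower. *Klf4* (0.41), *Runx1* (0.07) and *Cebpg* (-0.12) were not called there. *Cebpg* was also not called in GMP against HSC (0.35, adjusted p = 0.0974, edgeR), though it was without HSC O-NR replicate 3 (0.0294). In CLP against HSC 8 of 12 fits without 1 library lost the call of *Klf4* (adjusted p = 0.0579 to 0.181, HSC O-NR replicates 1, 3 and 4, CLP O-NR replicates 2, 3 and 4 and GMP O-NR replicates 2 and 3). It was also lost with upper quartile scaling (adjusted p = 0.0855), with DESeq2 (0.148) and in one model over the 24 libraries (0.0675). There *Cebpg* lost its call without the filter (0.427), in the one model (0.152), which left 3 factors higher in CLPs, and without HSC O-NR replicate 1 or 4 or CLP O-NR replicate 1 or 2 (0.0551 to 0.127) and *Cebpe* without HSC O-NR replicate 3 or CLP O-NR replicate 3 (0.0566 and 0.0546), while *Gfi1* gained one without CLP O-NR replicate 3 (0.0449). Upper quartile scaling called *Runx1* lower in GMPs than in HSCs (-0.32) and CLPs (-0.26), *Cebpg* lower in GMPs than in CLPs (-0.44), and *Gfi1* higher in CLPs than in HSCs (0.44), while *Klf4* lost its call in GMPs against HSCs (1.23, adjusted p = 0.0554, edgeR).

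Levels of different genes were set against each other per length, taken as all annotated exon bases of a gene together. That length can exceed the transcript in use, more so for genes with many exons, so the order is approximate. *Cebpb* and *Cebpd* also share exon bases with other genes, as given above. Over the 8 libraries of a cell type, the mean level per kilobase of exon in HSCs was highest for *Runx1*, at 20.7 ± 1.75 CPM per kilobase (SD, n = 8), then *Cebpb* at 14.8 ± 4.54 and *Spi1* at 10.4 ± 2.79. *Gfi1* (5.24 ± 1.39) and *Cebpg* (5.20 ± 0.623) did not differ beyond their spread, *Cebpd* followed at 2.88 ± 0.776, and *Klf4*, *Cebpe*, *Irf8* and *Cebpa* lay between 0.695 and 1.65. In CLPs *Irf8* led at 23.9 ± 6.98 CPM per kilobase, followed by *Runx1* at 14.7 ± 2.84 and *Spi1* at 10.4 ± 1.91, while *Cebpa*, *Klf4*, *Cebpe* and *Cebpb* lay within their spreads between 2.38 and 3.09. In GMPs *Cebpa* led at 62.1 ± 14.9 CPM per kilobase, with *Spi1* at 46.8 ± 8.28 and *Cebpe* at 42.3 ± 16.2 within the spread. *Gfi1* (30.8 ± 5.92), *Irf8* (27.7 ± 14.6) and *Cebpb* (27.5 ± 8.01) could not be told apart, *Runx1* was seventh at 19.4 ± 4.18, and *Klf4* was last at 4.13 ± 2.67. The order of the means thus turned over between cell types, with *Cebpa* last in HSCs and first in GMPs. These places were not resolved. In HSCs *Irf8* (0.941 ± 0.317) lay within the spread of *Cebpa* (0.695 ± 0.298), as *Spi1* and *Cebpe* did in GMPs. Against *Runx1*, *Cebpa* was far lower in HSCs and higher in GMPs.

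The genes that share a pattern with each factor over the 24 libraries of cohort 2 were taken by Pearson's r of log2 CPM among 16861 genes. The libraries fall into 3 cell types, and the parts of these values that lie between and within cell types were not separated. *Cebpa* was followed most closely by *Ctsg*, which encodes the granule protease cathepsin G (r = 0.987), *Rab44* (0.986) and *Fam49b* (0.983), and the genes close to *Cebpe* included *Hdc*, which encodes histidine decarboxylase (0.984), and *Anxa3* (0.975). For *Cebpd* the list held *Hk3* (0.968), *Tbc1d2b* (0.956) and *Prtn3*, which encodes proteinase 3 (0.955), and for *Cebpb* it held *Plppr3* (0.978), *Pak1* (0.977) and *Hk2* (0.977). *Spi1* ran closest to *Ddost* (0.991), *Mogs* (0.988) and *Ssr1* (0.988), and *Gfi1* to *Gatm* (0.975) and *Alas1* (0.974). *Irf8* ran with BC035044 (0.986) and the histone genes *Hist1h2bm* and *Hist1h1a* (0.983 each). The values were lower for *Runx1* (*Capn15* 0.937, *Araf* 0.929, *Ep300* 0.924), *Klf4* (*Dglucy* 0.856, *Nrp1* 0.838, *Itgb5* 0.806) and *Cebpg* (*Stag1* 0.825, *Arhgef1* 0.823, *Lims1* 0.823). Among the factors themselves, r was 0.953 between *Cebpa* and *Cebpe*, 0.946 between *Spi1* and *Gfi1* and 0.899 between *Cebpb* and *Cebpd*, against -0.213 between *Cebpb* and *Irf8*.

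The genes of the myeloid programme gave the setting in O-WT mice. Of 17 primary granule and myeloid receptor genes, 14 were higher in GMPs than in HSCs and none lower (median log2 fold change 3.29), led by *Elane*, which encodes neutrophil elastase (11.95 ± 0.43, SE), and *Ctsg* (8.46 ± 0.31). Of 12 monocyte and dendritic genes 7 were higher and 2 lower, with *F13a1* at 5.60 ± 0.29 and *Ly6c2* at 6.03 ± 0.32. Among 10 secondary granule and alarmin genes, 3 were higher, led by *Lcn2* (2.92 ± 0.39). In CLPs against HSCs, 9 of these 10 were higher, led by *S100a9* (4.74 ± 0.46). Whether these reads came from CLPs or from other cells was not tested. Of 22 other transcriptional regulators tested, 5 were higher in GMPs and 11 lower (median -0.64), among them *Zfpm1*, a GATA cofactor (-3.21 ± 0.21), and *Gfi1b*, the paralogue of *Gfi1* used in erythroid and megakaryocytic cells (-3.08 ± 0.23). Of 12 immediate early genes 7 were lower and 1 higher, with *Egr1* at -3.79 ± 0.30. In *Gata2*, which sustains stem cells, the log2 fold change of CLP against HSC was -5.49 ± 0.28.

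NR was then compared with no treatment in each cell type. None of the 10 factors was called at an adjusted p below 0.05 in HSCs, CLPs or GMPs by edgeR's quasi-likelihood test, where 0% of 17364, 19909 and 13486 genes were called, and none was called by DESeq2, which called 4, 0 and 8 genes. At an unadjusted p below 0.05 there were 1, 0 and 2 factors, beside 3.84%, 3.21% and 4.8% of all genes. At an unadjusted p below 0.01, the p-value part of the study's cutoff, there was 1 in HSCs (*Gfi1*), none in CLPs and 1 in GMPs (*Cebpg*), beside 0.726%, 0.412% and 0.986% of all genes. The study also asked for a change above 1.5-fold, which was not applied here, and both lay under it, *Gfi1* at 1.48-fold and *Cebpg* at 1.23-fold. *Cebpa* and *Cebpe* did not pass the filter on low levels in HSCs, so 8 were tested there and 10 in the other cell types.

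*Gfi1* in HSCs stood at 20.5, 25.1, 15.5 and 17.5 CPM in O-WT and at 16.8, 11.8, 12.1 and 14.1 CPM in O-NR. Only O-NR replicate 1 lay within the range of O-WT, above O-WT replicate 3, and the other 3 lay below it. The log2 fold change was -0.56 ± 0.18 (SE, 95% interval -0.94 to -0.19), with an unadjusted p of 0.00593 and an adjusted p of 0.995 in edgeR. Leaving out single libraries gave -0.39, without O-WT replicate 2, to -0.67, without O-NR replicate 1, and p rose above 0.01 in 4 of 8 such fits, those without O-WT replicate 2 or without O-NR replicate 2, 3 or 4.

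In HSCs of cohort 1, *Gfi1* stood at 18.6 and 26.7 CPM in O-WT, at 13.7, 18.5, 15.5 and 27.4 CPM in O-NR and at 25.2, 16.0 and 17.9 CPM in O-NR-RC. These 3 groups overlapped. The log2 fold change of O-NR against O-WT was -0.27 (95% interval -0.94 to 0.40), -0.12 without the 4 libraries of high receptor counts and 0.01 without O-WT replicate 2. Over both cohorts with a cohort term it was -0.41 ± 0.18 (unadjusted p = 0.0263, adjusted p = 1, edgeR), and an interaction test detected no difference between the cohorts (-0.20, 95% interval -0.94 to 0.55).

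In CLPs *Gfi1* stood at 14.2, 13.2, 12.8 and 14.1 CPM in O-WT and at 17.3, 19.3, 12.5 and 13.8 CPM in O-NR, overlapping groups with 2 O-NR libraries above all of O-WT. The NR effect in CLPs minus that in HSCs was 0.72 ± 0.26 (SE, unadjusted p = 0.00835, adjusted p = 1.00 over 22573 genes, edgeR). That was the only one of the 10 factors below 0.01 in this comparison, beside 0.421% of all genes, and with DESeq2 its p was 0.0209. Without single libraries it ran from 0.58, without HSC O-NR replicate 2, to 0.81, without HSC O-NR replicate 1, with p above 0.01 in 12 of 24 fits, each leaving out an HSC or CLP library. For GMP against HSC and GMP against CLP no factor was below 0.01, beside 0.133% and 0.439%. All 10 factors were below 0 in GMP against CLP, with a median of -0.34. The share over all genes was not counted. Of 23 other transcriptional regulators 19 were below 0 there (median -0.24), and of 10 secondary granule and alarmin genes 1 was. *Klf4* stood there at -0.37 ± 0.52 with all libraries (unadjusted p = 0.485, edgeR). Without GMP O-NR replicate 4 it was at -1.44 ± 0.42 (unadjusted p = 0.00139, adjusted p = 0.973, edgeR). That library was singled out after its high *Klf4* value was seen, so this p-value is not a fair test.

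*Runx1* in CLPs was the only factor of these 3 cell types whose O-WT and O-NR groups did not overlap, beside 2.4% of all genes in CLPs. It stood at 192, 149, 104 and 180 CPM in O-WT and at 194, 204, 194 and 199 CPM in O-NR. All 4 O-NR libraries lay above the 4 O-WT libraries, though the highest O-WT library was close to the lowest of O-NR. The difference was 0.30 ± 0.21 on the log2 scale (SE, unadjusted p = 0.154, adjusted p = 1.00, edgeR). The lowest O-WT library, replicate 3, was also the shallowest, with 4792380 counted reads, and had the highest receptor share of cohort 2, 0.749%. Their part in the difference was not tested.

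The remaining factors in CLPs ran from -0.30 for *Cebpe* (95% interval -1.30 to 0.70) to 0.17 for *Gfi1*, and 5 of 10 were above 0. In HSCs they ran up to 0.14 for *Spi1* (95% interval -0.24 to 0.51), with 7 of 8 below 0 and a median of -0.18, against -0.02 over all genes. The interval of *Cebpb* in CLPs ran from -0.87 to 0.92 and that of *Klf4* in HSCs from -1.21 to 0.33. Effects within such bounds were not excluded with 4 libraries per group.

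**Figure D3:**
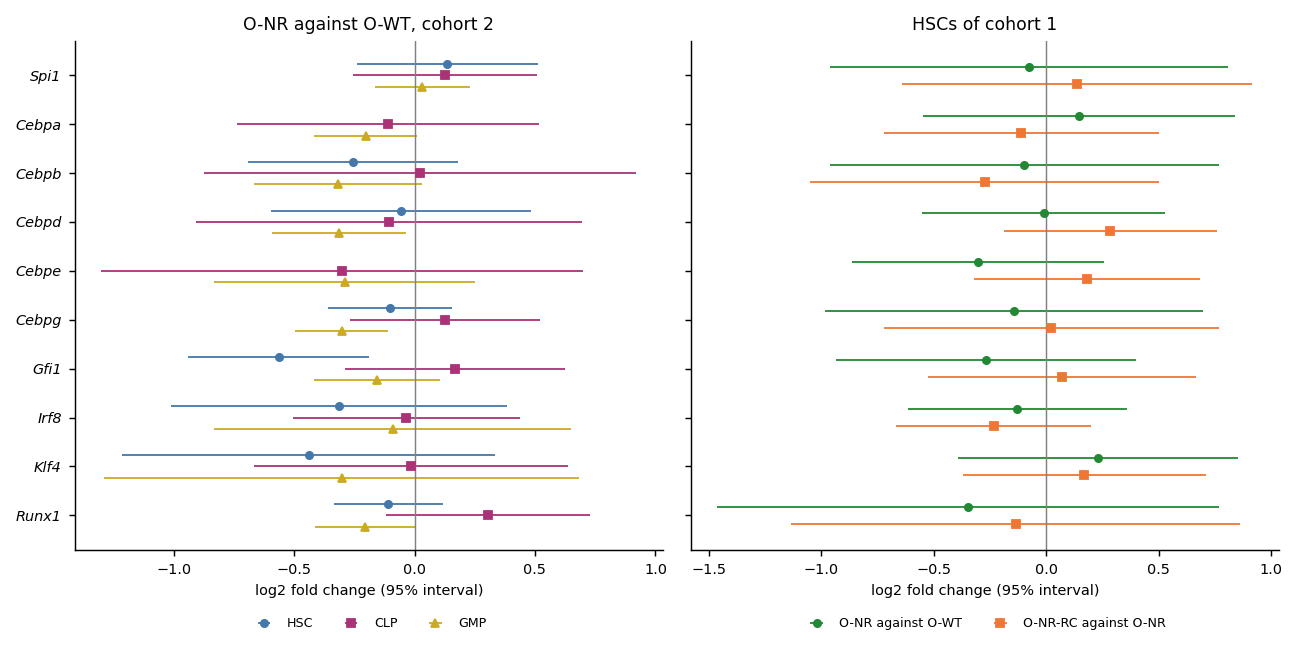
Log2 fold changes of the 10 factors with NR, with 95% intervals, in HSCs, CLPs and GMPs of cohort 2 (left) and in HSCs of cohort 1 during NR and after its withdrawal (right). *Cebpa* and *Cebpe* have no HSC value on the left because they did not pass the filter, and *Irf8* and *Klf4* have the widest intervals in GMPs.

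In GMPs 9 of the 10 factors were below 0 with NR and the median log2 fold change was -0.25, against -0.00182 over all genes, and 1 library stood apart in several of them. In GMPs *Irf8* stood at 218, 235, 243 and 129 CPM in O-WT and at 112, 108, 114 and 405 CPM in O-NR replicates 1 to 4. Replicates 1 to 3 lay below all O-WT libraries and replicate 4 lay above all of them. *Klf4* did the same, at 13.5, 13.4, 18.8 and 10.5 CPM in O-WT and at 4.52, 6.37, 4.87 and 28.6 CPM in O-NR.

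*Cebpb*, at 45.2, 60.6, 48.1 and 33.2 CPM in O-WT, stood at 31.8, 34.4, 25.2 and 52.2 CPM in O-NR. *Cebpd*, at 40.8, 51.8, 41.5 and 30.7 CPM in O-WT, stood at 29.3, 28.4, 26.8 and 42.4 CPM in O-NR. Replicate 4 was the highest O-NR library for both, whereas O-NR replicates 1 to 3 lay below all O-WT libraries for *Cebpd* and, but for replicate 2, for *Cebpb*. *Cebpe* and *Gfi1* were instead lowest of the O-NR libraries in replicate 4. *Cebpe* stood at 55.9, 91.3, 33.1 and 56.0 CPM in O-WT and at 51.3, 60.3, 49.4 and 23.1 CPM in O-NR, and *Gfi1* at 96.7, 123, 111 and 89.9 CPM and at 114, 103, 81.9 and 64.9 CPM.

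With all 8 libraries the log2 fold change was -0.09 for *Irf8* (95% interval -0.83 to 0.65), -0.30 for *Klf4* (-1.29 to 0.68), -0.32 for *Cebpb* (-0.67 to 0.03), -0.31 for *Cebpd* (-0.59 to -0.04), -0.29 for *Cebpe* (-0.83 to 0.25) and -0.16 for *Gfi1* (-0.42 to 0.10). Without O-NR replicate 4, *Irf8* was at -0.82 ± 0.12 (SE) and *Klf4* at -1.37 ± 0.22, both with an adjusted p of 0.0486 in edgeR. They were then 2 of 7 genes called of 13130, or 0.0533%, beside *Fosl2*, *Mpeg1*, *Met*, *Tpm4* and *Cyth4*, all 7 lower with NR. *Cebpb* stood at -0.56 ± 0.10 and *Cebpd* at -0.48 ± 0.09 (adjusted p = 0.0682 each, edgeR). Below an unadjusted p of 0.01 there were 5 factors, these 4 and *Cebpg*, beside 2.32% of all genes, against 1 factor and 0.986% with all libraries. *Cebpe* (-0.08), *Gfi1* (-0.03) and *Spi1* (-0.02) were near 0 without it. This library was singled out after its values were seen, so the p-values and counts of factors without it are not fair tests. Its 11998451 counted reads and receptor share of 0.149% lay within the range of the other GMP libraries. Those had 11755798 to 18213674 reads and receptor shares of 0.0777% to 0.214%.

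Of the 12 genes of the monocyte and dendritic list, 8 were higher in O-NR replicate 4 than in O-NR replicates 1 to 3, 3 were lower and 1 lay between. The summed level over the 12 genes was 878, 843, 1109 and 531 CPM in O-WT GMPs and 474, 463, 482 and 1460 CPM in O-NR GMPs, and none of the 12 was at 0 in any GMP library. O-NR replicate 4 was thus highest and O-NR replicates 1 to 3 lowest, with O-WT replicate 4 next above them. Most of the sum was *F13a1*, at 877 CPM in O-NR replicate 4, and *Ly6c2*, at 290 CPM. The 3 genes that went the other way were low throughout. *Zbtb46* stood at 4.99 CPM in replicate 4 against 6.53 to 10.3 CPM in replicates 1 to 3. *Xcr1* stood at 1.98 CPM against 3.03 to 4.95 CPM and *Batf3* at 0.565 CPM against 0.716 to 2.27 CPM. These 3 are used by dendritic cells, but genes of such cells did not move as 1 class. *Siglech* was higher in replicate 4, at 1.6 CPM against 0.876 to 1.46 CPM, as was *Tlr9*, at 6.5 CPM against 1.84 to 3.18 CPM. *Ciita* lay between at 9.04 CPM. *Ccr2* of the same list and, from the list of primary granule and receptor genes, *Csf1r*, the receptor for macrophage colony-stimulating factor, ran from 47.5 to 131 CPM and from 48.1 to 156 CPM, both lowest in O-NR replicate 2 and highest in O-NR replicate 4. Of the 17 genes of that second list, 9 were higher in O-NR replicate 4 than in O-NR replicates 1 to 3, 2 were lower and 6 lay between. *Gata2* was lowest in replicate 4, at 33.6 CPM against 65.4 to 206 CPM in the other GMP libraries. Of the 24 other transcriptional regulators, 7 were higher in O-NR replicate 4 than in O-NR replicates 1 to 3, 13 were lower and 4 lay between. All 6 megakaryocyte markers were lower in it than in O-NR replicates 1 to 3. They summed to 48.4 CPM there and to 101 to 167 CPM elsewhere in GMPs. The 8 macrophage markers summed to 45.7 CPM in replicate 4, with 1 of the 8 at 0, and to 44.7 to 66.0 CPM in the other GMP libraries. The 8 B and plasma cell markers summed to 134 CPM there and to 51.6 to 84.8 CPM elsewhere in GMPs, and their part in the result was not tested. The GMP markers *Mpo* (17100 CPM in replicate 4, 13430 to 20240 CPM elsewhere) and *Elane* (2009 CPM, 1541 to 2376 CPM elsewhere) did not set it apart. Against O-NR replicates 1 to 3, 1 of the 6 GMP markers was higher in it, 1 was lower and 4 lay between. Of the 12 immediate early genes 7 were higher, 2 lower and 3 between. Of the 8 HSC markers 1 was higher, 6 lower and 1 between.

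**Figure D4:**
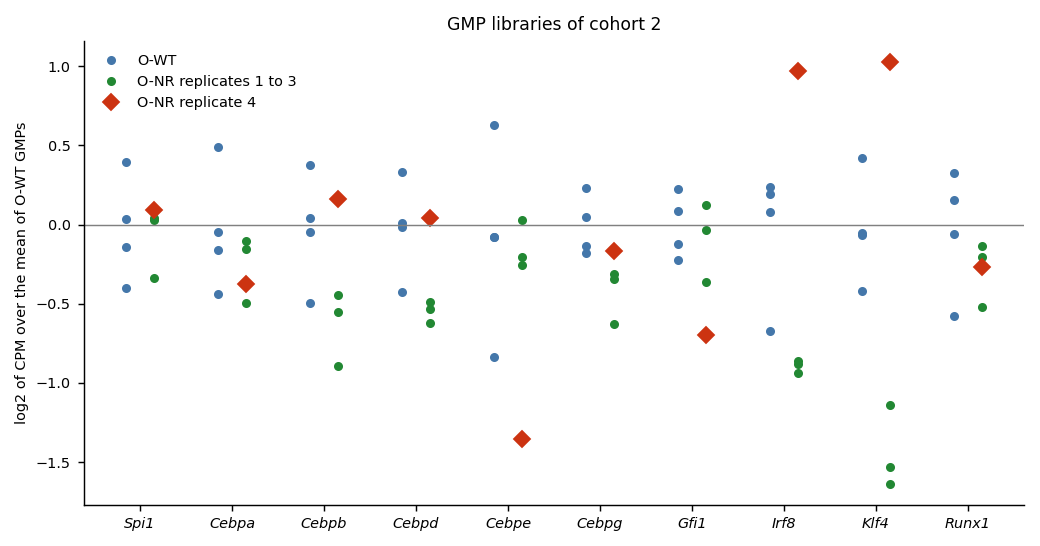
Level of each factor in the 8 GMP libraries of cohort 2, as log2 of its CPM over the mean of the 4 O-WT libraries. O-WT libraries are blue, O-NR replicates 1 to 3 green and O-NR replicate 4 is a red diamond, which lies far above the other O-NR libraries for *Irf8* and *Klf4* and below them for *Cebpe* and *Gfi1*.

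*Cebpg* in GMPs did not rest on that library. It stood at 38.9, 50.2, 44.0 and 37.6 CPM in O-WT and at 33.6, 34.3, 27.6 and 38.0 CPM in O-NR. O-NR replicates 1 to 3 lay below all of O-WT and replicate 4 lay just above the lowest of O-WT. The log2 fold change was -0.30 ± 0.09 (SE, unadjusted p = 0.00455, adjusted p = 0.905, edgeR), and -0.26 to -0.37 without single libraries, with p above 0.01 in 6 of 8 such fits, all but those without O-WT replicate 1 or O-NR replicate 4. *Cebpa* was at -0.20 (95% interval -0.42 to 0.01), *Runx1* at -0.21 (-0.41 to 0.00) and *Spi1* at 0.03 (-0.17 to 0.23), which with *Cebpg* had the smallest standard errors among the factors in GMPs.

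The same library bears on the cell type comparisons of O-NR mice. *Klf4* in GMPs against HSCs was at 1.499 ± 0.43 (SE, adjusted p = 0.00468) and at 0.37 ± 0.34 without it (adjusted p = 0.43, edgeR). *Irf8* in GMPs against CLPs was at 0.12 ± 0.31 (adjusted p = 0.758) and at -0.63 ± 0.22 without it (adjusted p = 0.0232, edgeR). In GMPs against HSCs *Irf8* kept its call, at 4.31 ± 0.25 without it. As the library was left out after its *Irf8* and *Klf4* values were seen, the p-values without it are not fair tests.

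No list of the myeloid programme had a gene called with NR in GMPs (adjusted p below 0.05), and at an unadjusted p below 0.01 there was 1, *Id2*, an inhibitor of basic helix-loop-helix factors (-0.84 ± 0.27, SE). Of 17 primary granule and myeloid receptor genes 12 were below 0, with a median of -0.09, of 8 monocyte and dendritic genes tested 7 were below 0 (median -0.11), and of 10 immediate early genes 9 (median -0.22). The smallest p values in the first 2 of these lists were those of *Mpo* (0.10 ± 0.07) and *Ctss* (-0.45 ± 0.30).

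In HSCs of cohort 1 none of the 10 factors, all of which passed the filter there, was below an adjusted p of 0.05 or an unadjusted p of 0.05 in edgeR, or called by DESeq2, in any of the 3 comparisons. Of 33350 genes 0% were called, and 0.546%, 0.291% and 0.795% were below an unadjusted p of 0.05 in O-NR against O-WT, O-NR-RC against O-NR and O-NR-RC against O-WT. The comparisons share libraries, O-NR in the first 2 and O-WT in the first and last. Log2 fold changes of O-NR against O-WT ran from -0.35 for *Runx1* (95% interval -1.46 to 0.77) to 0.23 for *Klf4* (-0.39 to 0.85). Those of O-NR-RC against O-NR ran from -0.27 for *Cebpb* (-1.05 to 0.50) to 0.29 for *Cebpd* (-0.19 to 0.76).

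For *Runx1*, *Spi1* and *Cebpg* the spread inside O-NR and inside O-NR-RC was wider than the differences between the group means. *Runx1* stood at 201 and 193 CPM in O-WT, at 100, 113, 196 and 211 CPM in O-NR replicates 1 to 4 and at 232, 92.9 and 97.4 CPM in O-NR-RC replicates 1 to 3. The 4 low libraries are the 4 of high receptor counts. *Spi1* stood at 38.4 and 30.6 CPM, at 23.8, 28.2, 35.8 and 42.8 CPM and at 61.6, 21.7 and 24.4 CPM in the same order, and *Cebpg* at 38.3 and 36.4 CPM, at 22.8, 23.8, 45.2 and 43.6 CPM and at 51.7, 22.7 and 28.6 CPM. For these 3 genes and *Cebpb* the 4 libraries lay below the other 5. The share of all genes split in this way was not counted, so the split is not a result about the factors. The summed level of the 8 HSC markers moved with them, at 645 to 743 CPM in the 4 libraries and 1195 to 1862 CPM in the other 5, and their part in the result was not tested. *Klf4* went the other way, at 10.3 to 15 CPM in the 4 libraries and 7.13 to 9.95 CPM in the other 5. *Irf8* did not follow the split, with 14.8 to 18.9 CPM in the 4 libraries and 15.6 to 23.7 CPM in the other 5.

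Without the 4 libraries, 2 O-WT libraries, 2 O-NR libraries and 1 O-NR-RC library remained, the lone O-NR-RC library being assumed to vary like the others. *Runx1* was then at 0.01 in O-NR against O-WT. *Spi1* was at 0.72 ± 0.18 in O-NR-RC against O-WT (SE, adjusted p = 0.0305, edgeR), the 1 factor called beside 2.04% of 28275 genes, and at 0.56 ± 0.18 in O-NR-RC against O-NR (adjusted p = 0.158), where *Cebpd* was at 0.67 ± 0.20 (adjusted p = 0.142, edgeR). With all 9 libraries *Spi1* was at 0.06 (95% interval -0.87 to 1.00) and 0.14 (-0.64 to 0.92) in these comparisons, and without O-NR-RC replicate 1, the O-NR-RC library where it was highest, at -0.57 and -0.49.

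**Figure D5:**
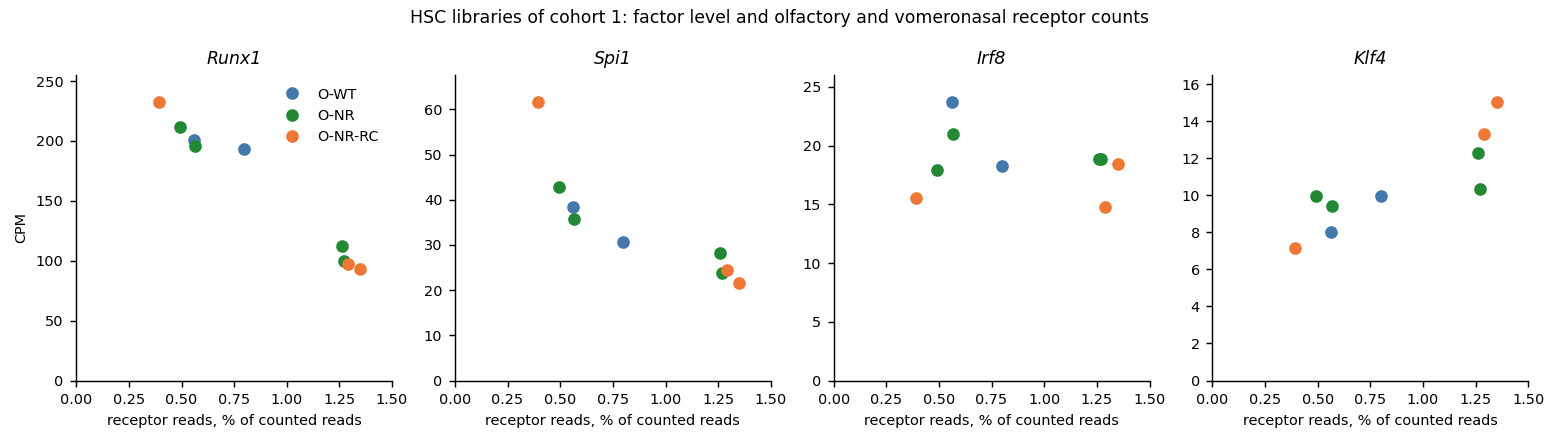
Level in CPM of 4 of the factors in each of the 9 HSC libraries of cohort 1 against the share of counted reads that fell on olfactory and vomeronasal receptor genes, coloured by group (blue O-WT, green O-NR, orange O-NR-RC). *Runx1* was 92.9 to 113 CPM in the 4 libraries with 1.26% to 1.35% receptor reads and 193 to 232 CPM in the other 5.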

How the data were processed

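Total RNA of sorted HSCs, CLPs and GMPs was sequenced in 33 libraries made with a SMARTer pico input kit. The authors trimmed the reads with trim galore and cutadapt, aligned them to mm10 using STAR and Gencode M22, and deposited raw featureCounts counts per gene, without normalization. The strand setting is not given in the sources used here. Groups and replicate numbers came from the labels, and mouse age, NR and its withdrawal from the methods.

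From the deposited counts, genes above 3 CPM in no fewer libraries than the smallest group had were kept, libraries were scaled with TMM and groups compared with edgeR 4.0.16 (quasi-likelihood test, R 4.3.3), with Benjamini-Hochberg adjustment over all genes tested. A gene was called at an adjusted p below 0.05, and for NR an unadjusted p below 0.01, the p-value part of the study's cutoff, was also counted, without its minimum fold change. Cell types were compared within O-WT and within O-NR (12 libraries each), NR within each cell type (8), NR effects between cell types over all 24, cohort 1 as 9 libraries, and HSCs of both cohorts with a cohort term. Standard errors are the fold change over the root of the F statistic. DESeq2 1.42.0, other scalings, no filter, one model, the replicate block and fits without single libraries were alternatives. The fits were tested on simulated data. Exon lengths and overlaps came from Gencode M21, promoters from RefSeq.

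The members and lists were chosen with earlier results of these data known. Every member was named in the comparisons, with the 3 genes closest in pattern and genes of smallest p or level from fixed lists. Among the genes closest in pattern, 1 is not reported here. *Csf1r*, *Fosl2*, *Mpeg1*, *Met*, *Tpm4*, *Cyth4* and *Gata2* beside *Irf8* in GMPs, and the 4 cohort 1 libraries left out together, were chosen after values were seen. Same-numbered HSC and CLP libraries of O-WT deviated together (r 0.133 to 0.404 in 4 of 4 pairs). The other pairs of cell types reached 0.1 in at most 2 of 4. In O-WT their mean r was -0.187 for HSCs with GMPs and -0.154 for CLPs with GMPs. In O-NR it was -0.112 for HSCs with CLPs, -0.0815 for HSCs with GMPs and 0.155 for CLPs with GMPs. These values do not bear out the pairing in every pair of cell types. Pairing comes from the deposited files, where same-numbered libraries of the 3 cell types share an identifier in their names, taken as 1 mouse. O-WT and O-NR libraries share only a number. The block is given beside a result where it changes a call. Proteins and the promoters of *Spi1*, *Cebpd* and *Cebpe* were not analysed here.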

Additional observations from a re-analysis of the deposited data

Results flagged for a closer look

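Among 70 sets of 4 libraries, 1 per factor and group, 6 held a library far from the other 3 by Dixon's test, where chance gives about 1 in 20. Of these, 3 lay in GMP O-NR replicate 4, with *Irf8* at 404.6 CPM (107.7 to 113.7 in the others), *Klf4* at 28.64 CPM (4.52 to 6.37) and *Cebpd* at 42.4 CPM (26.8 to 29.3). *Spi1* was low in GMP O-NR replicate 3, at 101 CPM (130 to 136 in the others). In HSCs, *Irf8* was high in O-NR replicate 4, at 10.3 CPM (4.34 to 4.89), and *Runx1* was low in O-NR replicate 2, at 213 CPM (251.2 to 257.6).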

How the results depend on the processing

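Limits come first. With 4 libraries per group, and 2 to 4 in cohort 1, the NR comparisons have wide intervals, and the low levels of *Cebpa* and *Cebpe* kept them out of the HSC test. The 4 cohort 1 libraries left out together were chosen after the data were seen. Cell type differences of little size depend on the scaling. Strand was not available for *Cebpb*, *Cebpd* and *Gfi1*. For none of the changes below was the cause tested.

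Leaving 1 library out aside, 15 values changed sign. *Runx1* in GMP against HSC (O-WT) was 0.22 with DESeq2's size factors, 0.22 with DESeq2 and 0.28 without the filter. Upper quartile scaling gave -0.0791 for *Cebpg* and -0.22 for *Irf8* in GMP against CLP (O-WT), and -0.26 for *Runx1* and -0.20 for *Irf8* in O-NR. Without the filter *Spi1* was -0.0296 in CLP against HSC (O-WT) and -0.0086 with NR in GMPs, and *Cebpg* 0.0634 in GMP against CLP (O-NR). One model over cohort 2 put *Spi1* at -0.0316 with NR in GMPs. Without the 4 cohort 1 libraries, *Runx1* was 0.0137 in O-NR and 0.12 in O-NR-RC against O-WT, and *Klf4* -0.45 in O-NR-RC against O-WT.

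With the replicate block *Irf8* in GMP against CLP (O-NR) was -0.16, *Gfi1* lost its call in CLP against HSC (O-WT), and over both cohorts 1 factor, *Gfi1*, passed the unadjusted threshold of 0.01. It changed no other call. Counts of factors past that threshold became 0 in HSCs and GMPs without the filter, 0 in GMPs in one model, 0 for the NR effect in CLP against HSC with DESeq2's size factors, without the filter and with DESeq2, and 1 in GMP against CLP with upper quartile scaling. Without the 4 cohort 1 libraries there were 2 in O-NR-RC against O-NR and 1 against O-WT, where 1 was also called.

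Over fits without single libraries, called factors with NR in GMPs ran from 0 to 2, and those past the unadjusted threshold from 0 to 5 in GMPs and from 0 to 1 in HSCs, over both cohorts and for the NR effect in CLP against HSC and in GMP against CLP. Log2 values that changed sign ran from -0.15 to 0.14 (*Runx1*, GMP against HSC, O-WT), -0.036 to 0.35 (*Spi1*, CLP against HSC, O-WT), -0.27 to 0.0125, -0.63 to 0.33 and -0.67 to 0.66 (*Cebpg*, *Irf8* and *Klf4*, GMP against CLP, O-NR), -0.0188 to 0.10 and -0.82 to 0.11 (*Spi1* and *Irf8*, NR in GMPs). In cohort 1 they ran from -0.51 to 0.0137 (*Gfi1*, O-NR against O-WT), -0.49 to 0.39 and -0.57 to 0.31 (*Spi1*, O-NR-RC against O-NR and O-WT).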
